A study of Mus musculus with 89 samples.

Results

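Livers of mice given extracellular vesicles and particles (EVPs) from cultured K7M2 cells were compared with livers of mice given phosphate-buffered saline (PBS). The experiment comprised 6 of the 89 samples of the series, chosen by their group labels: 3 livers of the group K7M2-CL-EVPs and 3 livers of the group PBS-7. All were from BALB/c mice, the strain from which the K7M2 osteosarcoma line was derived. The treated mice received 10 ug of EVPs in 100 ul of PBS into a vein every other day for 4 weeks, and the PBS-7 mice received 100 ul of PBS alone on the same schedule. The labels name no other agent, and age and sex were not given in the labels. The rest of the series covers livers of mice carrying tumours outside the liver, livers after other EVP preparations, and cultured hepatocytes treated with tumour necrosis factor. Of these, 3 groups served as points of comparison. K7M2-TE-EVPs, 3 BALB/c livers after EVPs of K7M2 tumour explants, were set by the authors against the same PBS-7 livers. K7M2-Tb, 5 BALB/c livers 4 weeks after K7M2 cells were placed in the tibia, had 5 PBS-2 livers as controls. B16F10-CL-EVPs, 5 C57BL/6 livers after EVPs of cultured B16F10 melanoma cells at the same dose and schedule, had 5 PBS-8 livers. For antibody genes alone, C57BL/6 livers given the same dose of other B16F10 preparations were also read: explant EVPs (B16F10-TE-EVPs, 5 against 5 PBS-6 livers), exomeres, which are small non-membranous particles, and the small (Exo-S) and large (Exo-L) exosomes, 4 each against 4 shared PBS-10 livers.

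EVPs are the membrane-bound vesicles and smaller non-membranous particles that cells release, and they carry proteins, nucleic acids and lipids. After intravenous injection a large share is taken up in the liver, where Kupffer cells, the resident macrophages, clear particles from the blood. Hepatocytes make most plasma proteins and carry out lipid, glucose and drug metabolism, and they answer interleukin-6 with the acute phase response, in which secretion of fibrinogen and serum amyloid A increases.

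The values were those of the authors' own DESeq2 comparison, with 1 row for each of 42687 Ensembl gene identifiers and no value per liver, so the replicates could not be examined and overlap between the groups could not be checked. Each row of the authors' deposited table held a base mean, which is the normalised read count averaged over the samples of the fit, a log2 fold change shrunken toward 0, its error, and a p-value with its adjustment. Values after ± are the deposited errors of shrunken log2 fold changes, and a positive fold change means a higher level in K7M2-CL-EVPs livers than in PBS-7 livers. The labels do not say that the livers of a group came from separate animals, so the p-values measure the spread between these samples, which may be technical. Base means were identical in the K7M2-TE-EVPs comparison, which points to 1 fit of the 9 livers of the 3 groups. The base means, and the spread behind the p-values, then also draw on the 3 K7M2-TE-EVPs livers. Base means in the authors' deposited table summed to 25856948, and the depth of single libraries is unknown.

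The change was narrow. Of 11820 tested genes in the authors' deposited table, 175 passed an adjusted p of 0.05, which is 1.48% of them. Of these, 74 genes (0.626%) were higher in K7M2-CL-EVPs livers and 101 (0.854%) were lower. Most changes were small, with a median log2 fold change of 0.39 among the genes that rose and -0.35 among those that fell in the authors' deposited table. Only 4 genes rose by 1 or more on the log2 scale and 1 gene fell by as much, in the authors' deposited table. Over all tested genes the median log2 fold change was -0.00027, and 49.8% of them lay above 0 in the authors' deposited table. At an unadjusted p under 0.05 there were 1355 tested genes (11.5%), 665 higher (5.63%) and 690 lower (5.84%), in the authors' deposited table, and counts of list members at that threshold are to be read beside these shares. At the threshold, the last gene inside had an adjusted p of 0.0491 and the first outside 0.05004 in the authors' deposited table.

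**Figure D1:**
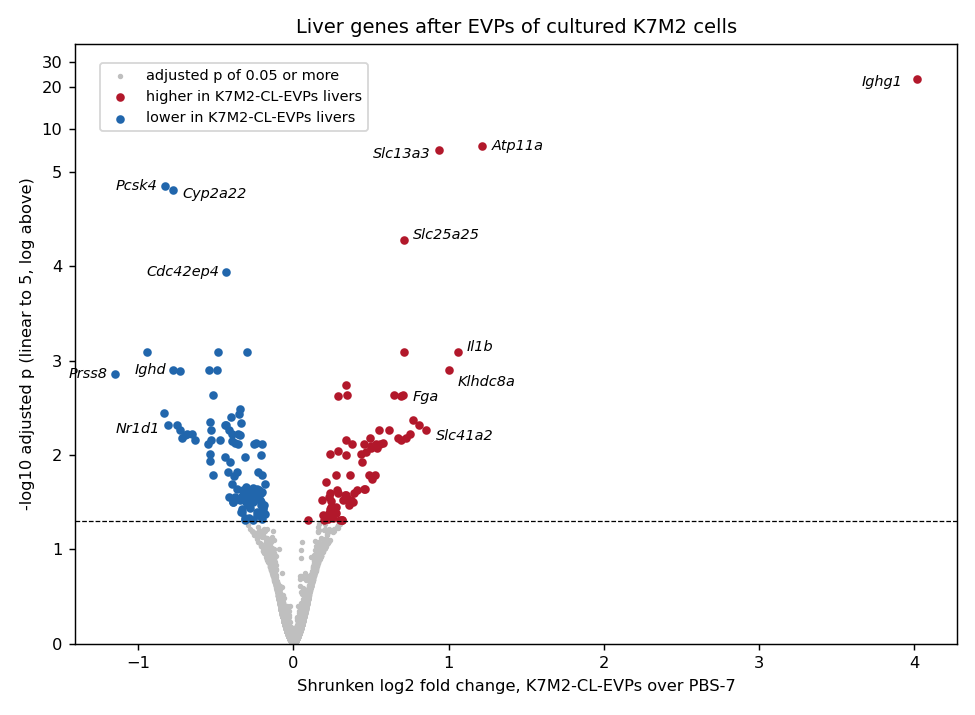
Each point is a tested gene of the authors' deposited table, with its shrunken log2 fold change in K7M2-CL-EVPs livers over PBS-7 livers on the x axis and -log10 of its adjusted p on the y axis, linear to 5 and logarithmic above. Red marks the 74 genes that rose, blue the 101 that fell and grey the rest; the dashed line is an adjusted p of 0.05, and Ighg1, at 4.02, stands far to the right of all others.

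The tissue was liver by its markers. The 7 hepatocyte markers, among them Alb (albumin) and Ttr (transthyretin), had base means between 14344 and 3053850 and log2 fold changes between -0.070 and -0.0031 in the authors' deposited table, and none passed the test. Markers of Kupffer cells (5 genes), sinusoidal endothelium (4) and stellate cells (4) had none past the threshold in the authors' deposited table. Of the exocrine pancreas markers, 5 of 8 were listed at 0, as were 2 of 3 skeletal muscle markers, 1 of 3 adipocyte markers and 2 of 4 osteoblast markers (Sp7 and Ibsp) in the authors' deposited table. The highest base means among these markers were those of the elastase gene Cela1, with a base mean of 434, and Runx2, the osteoblast transcription factor, with 14.7 in the authors' deposited table.

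The largest change was in antibody heavy chain genes. Antibody class is set by the constant region: a naive B cell transcribes Ighm and Ighd, and class switching replaces these by an IgG, IgA or IgE constant region. Ighg1, the IgG1 constant region (chr12:113325240-113330523, minus strand, GENCODE vM21 on GRCm38), rose by 4.02 ± 0.37 on the log2 scale, from the authors' deposited table, with a DESeq2 adjusted p of 1.91e-23 and a base mean of 96.8. Igkc, the kappa light chain constant region, also rose, with a log2 fold change of 0.39 ± 0.37 and an adjusted p of 0.0312 in the authors' deposited table, a call lost when p-values are adjusted over every gene that has one. Ighd, the IgD constant region, fell by 0.77 ± 0.23 with an adjusted p of 0.00124 in the authors' deposited table. After K7M2-TE-EVPs, against the same PBS-7 livers, Ighd had -0.25 ± 0.14 with 0.0279 in the authors' deposited table.

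A pair of further IgG genes, Ighg2b and Ighg2c, had low counts and no adjusted p. Both pass when p-values are adjusted over every gene that has one. In that setting Il1b, with a larger unadjusted p of 6.11e-07 by DESeq2, passes with an adjusted p of 0.00135. Ighg2b had a log2 fold change of 2.23 ± 0.61, an unadjusted p of 1.37e-08 and a base mean of 27.5 in the authors' deposited table. Ighg2c had 5.11 ± 1.29, an unadjusted p of 5.53e-08 and a base mean of 13.1 in the authors' deposited table. BALB/c mice carry the closely similar Ighg2a in place of Ighg2c, so reads counted under that name may come from the other gene. Ighg3, the IgG3 constant region, had 0.020 ± 0.12 and an unadjusted p of 0.139 in the authors' deposited table.

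Other B-lineage genes did not pass. Ighm had a log2 fold change of -0.12 ± 0.13 with an adjusted p of 0.216, and Igha, the IgA constant region, had 0.074 ± 0.21 with 0.177 in the authors' deposited table. Jchain, which joins IgA and IgM into polymers and marks antibody-secreting cells, had 0.17 ± 0.26 with an adjusted p of 0.117 in the authors' deposited table. The B cell markers Cd79a, Cd79b and Ms4a1 had log2 fold changes of -0.091, -0.062 and -0.19, and neither of the 2 tested, Cd79a and Cd79b, passed in the authors' deposited table. Of 176 immunoglobulin variable segments with a p-value, 10 had an unadjusted p under 0.05 and were higher in K7M2-CL-EVPs livers, and 0 were lower, in the authors' deposited table. That is 5.68% of the segments, beside 6.20% of all 24733 genes with a p-value, of which 3.08% were higher, in the authors' deposited table. The largest base mean of a variable segment was 10.3 in the authors' deposited table, and no variable segment had an adjusted p. In whole liver, a change in the number of B-lineage cells and a change in RNA per cell cannot be told apart.

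IgG genes were also called in other comparisons of the series, each against its own PBS group unless stated. Against the shared PBS-7 livers, K7M2-TE-EVPs livers had an Ighg1 log2 fold change of 0.26 ± 0.33 with an adjusted p of 0.0174 in the authors' deposited table. In K7M2-Tb livers Ighg1 had 1.83 ± 0.48 with an adjusted p of 2.56e-05 in the authors' deposited table. Among livers given B16F10 preparations, Ighg1 had 0.91 ± 0.60 after B16F10-CL-EVPs (adjusted p 0.00111), 0.014 ± 0.20 after B16F10-TE-EVPs (0.837), 0.27 ± 0.52 after B16F10_exomeres (0.122), 0.80 ± 0.89 after B16F10_Exo-S (0.0203) and 2.32 ± 0.82 after B16F10_Exo-L (0.000156) in the authors' deposited tables. Ighg2c had 1.61 ± 0.90 after B16F10-CL-EVPs (adjusted p 0.000163), 2.66 ± 0.80 after B16F10_exomeres (9.98e-06), 3.15 ± 0.69 after B16F10_Exo-S (8.91e-07) and 3.96 ± 0.75 after B16F10_Exo-L (8.23e-11) in the authors' deposited tables. Igha did not pass in K7M2-CL-EVPs livers but had 1.06 ± 0.27 after B16F10-TE-EVPs (adjusted p 0.000112), 1.49 ± 0.28 after B16F10_exomeres (2.09e-07), 0.70 ± 0.37 after B16F10_Exo-S (0.0111) and 1.39 ± 0.27 after B16F10_Exo-L (3.15e-06) in the authors' deposited tables. Neither gene passed in K7M2-Tb livers (Ighg2c 0.16 ± 0.48, adjusted p 0.523, and Igha 0.15 ± 0.18, 0.408). After K7M2-TE-EVPs Ighg2c had 0.0036 ± 0.15 with an unadjusted p of 0.804 and no adjusted p. Igha had 0.053 ± 0.15 there with an adjusted p of 0.393. Ighg2c did not pass after B16F10-TE-EVPs (0.074 ± 0.23, 0.344), nor Igha after B16F10-CL-EVPs (0.030 ± 0.11, 0.728), in the authors' deposited tables. Whether Igha differs between these effects was not tested. The share of tested genes that passed in the tables used for antibody genes alone was 8.60% for B16F10-TE-EVPs, 12.7% for B16F10_Exo-L, 9.76% for B16F10_Exo-S and 4.93% for B16F10_exomeres, from the authors' deposited tables.

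**Figure D2:**
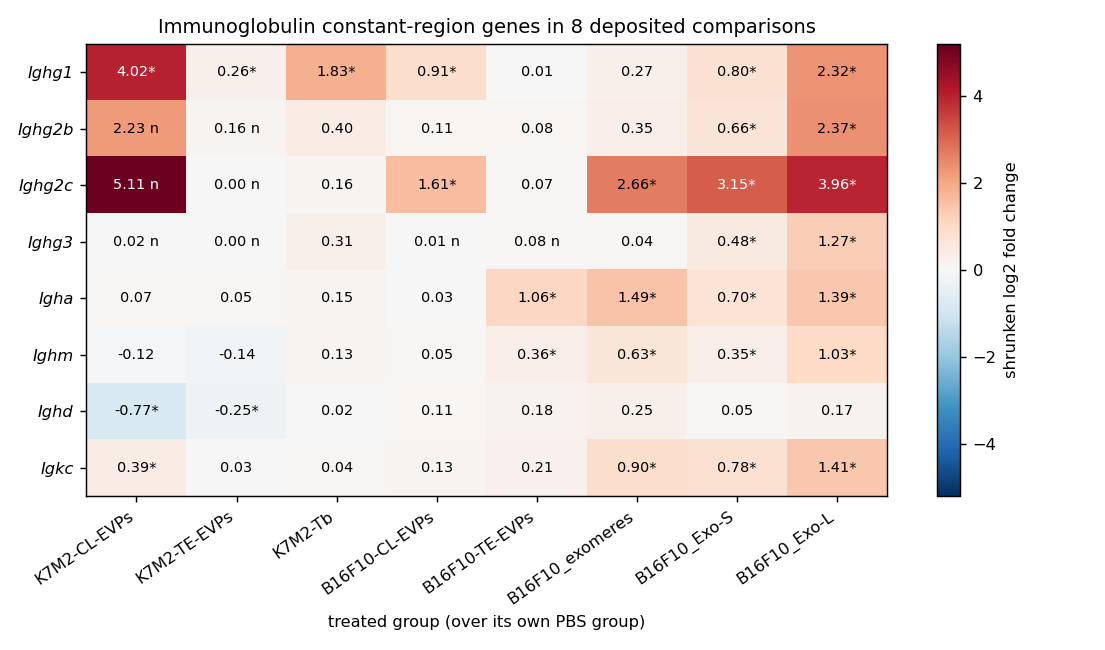
Each cell gives the shrunken log2 fold change, also shown by colour, of an immunoglobulin constant-region gene (rows) in a treated group over its own PBS group (columns), from the authors' deposited tables; * marks an adjusted p under 0.05 and n a gene with no adjusted p. The K7M2-CL-EVPs column holds the strongest Ighg1 value, 4.02, and the only Ighd value as low as -0.77.

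Fibrinogen and a regulator of interleukin-6 signalling rose as well. Fibrinogen, the soluble precursor of fibrin clots and a classical acute phase protein, is built from 3 chains encoded side by side on chromosome 3. Fga rose by 0.71 ± 0.23 with an adjusted p of 0.00231 in the authors' deposited table. Fgg rose by 0.69 ± 0.23 with 0.00238, and Fgb by 0.54 ± 0.27 with 0.00849 in the authors' deposited table. Base means of the chains lay between 102880 and 135100 in the authors' deposited table. Socs3, an inhibitor induced by STAT3 that ends interleukin-6 signalling, rose by 0.69 ± 0.38 with an adjusted p of 0.00686 in the authors' deposited table. Bcl3, an atypical inhibitor of nuclear factor kappa B, rose by 0.29 ± 0.17 with 0.0250 in the authors' deposited table.

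The promoter windows of the fibrinogen chains and of Socs3 are shown because these genes rose together. The windows run from 250 bases before to 50 bases after the start in RefSeq (GRCm38.p6), 5′ to 3′ on the gene's strand. Capitals mark matches on either strand to TTCNNNGAA, the core motif of STAT proteins, or to CTGGGAA, the core of the type II interleukin-6 response element.
Fga, chr3:83025903-83026202, plus strand: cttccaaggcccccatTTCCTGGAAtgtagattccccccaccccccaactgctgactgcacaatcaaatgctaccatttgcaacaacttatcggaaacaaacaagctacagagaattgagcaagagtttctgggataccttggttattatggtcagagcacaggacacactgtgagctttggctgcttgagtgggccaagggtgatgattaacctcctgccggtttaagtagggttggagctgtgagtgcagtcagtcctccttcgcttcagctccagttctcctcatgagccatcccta
Fgb, chr3:83049814-83050113, minus strand: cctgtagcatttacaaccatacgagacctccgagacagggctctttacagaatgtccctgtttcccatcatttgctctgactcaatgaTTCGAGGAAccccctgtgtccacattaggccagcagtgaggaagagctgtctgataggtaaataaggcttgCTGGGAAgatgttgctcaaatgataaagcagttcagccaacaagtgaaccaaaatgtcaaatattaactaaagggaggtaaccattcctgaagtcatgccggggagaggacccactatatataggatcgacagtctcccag
Fgg, chr3:83007474-83007773, plus strand: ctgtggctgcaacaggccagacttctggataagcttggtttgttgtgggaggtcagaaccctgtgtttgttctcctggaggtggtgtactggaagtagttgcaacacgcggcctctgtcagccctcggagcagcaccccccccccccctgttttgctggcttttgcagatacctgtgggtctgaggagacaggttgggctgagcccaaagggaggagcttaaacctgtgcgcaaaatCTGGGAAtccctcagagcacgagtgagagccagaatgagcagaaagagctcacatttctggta
Socs3, chr11:117969317-117969616, minus strand: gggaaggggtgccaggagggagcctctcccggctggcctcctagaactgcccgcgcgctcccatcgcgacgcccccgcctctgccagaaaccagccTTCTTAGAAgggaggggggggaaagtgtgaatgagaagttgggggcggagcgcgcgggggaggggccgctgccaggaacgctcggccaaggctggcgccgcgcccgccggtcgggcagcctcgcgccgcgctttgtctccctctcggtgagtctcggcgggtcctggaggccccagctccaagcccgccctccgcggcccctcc
The STAT match lay 234 to 226 bases before the RefSeq start in Fga, 162 to 154 in Fgb and 154 to 146 in Socs3. GENCODE vM21 places Socs3 at chr11:117966079-117970047 on the minus strand, so the window shown lies inside that gene span. For Socs3 the match is therefore before the RefSeq start but not before the GENCODE start. The CTGGGAA match lay 91 to 85 bases before the start in Fgb and 13 to 7 in Fgg, and no match overlapped another. Among all 32851 windows from RefSeq, TTCNNNGAA was present in 8.30% and CTGGGAA in 11.1%. By gene, TTCNNNGAA was in a window of 10 of the 57 genes that rose and had a window (17.5%), of 4 of the 70 that fell (5.71%), and of 9.55% of all 27025 genes. CTGGGAA was in a window of 6 of the 57 (10.5%), of 5 of the 70 (7.14%) and of 12.7% of all genes. These matches are a description of letters, and binding was not measured.

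Gene lists for liver functions and cell types held 954 tested members, of which 36 (3.77%) were called in the authors' deposited table, 19 upward and 17 downward. Over all 11820 tested genes 1.48% were called, 0.626% upward and 0.854% downward, and the counts per list below are to be read beside these shares. The lists were chosen with earlier results of these data known, so the higher share among their members is no test of enrichment. Of 49 lists 31 held no call.

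Of 34 tested acute phase genes 4 rose and 0 fell, with a median log2 fold change of 0.051 against -0.00027 over all tested genes in the authors' deposited table. 30 of the 34 lay above 0, as did 49.8% of all tested genes in the authors' deposited table. At an unadjusted p under 0.05, 18 members were higher and 2 lower, and 8 rose at an adjusted p under 0.1, in the authors' deposited table. The other member called was Saa2, a serum amyloid A gene, with a log2 fold change of 0.094 ± 0.51 and an adjusted p of 0.0491 in the authors' deposited table. Its near-identical neighbour Saa1 had 0.058 ± 0.36, and reads may be split between them. Saa2 and Bcl3 did not pass when p-values were adjusted over every gene that has one. Crp, C-reactive protein, had 0.25 ± 0.21 with an adjusted p of 0.0631 in the authors' deposited table. In the interleukin-6 and STAT3 list 2 of 16 tested members rose, Socs3 and Bcl3, while Stat3 had 0.11 ± 0.13 with an adjusted p of 0.253 in the authors' deposited table.

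Among cytokine genes Il1b, which encodes the inflammatory cytokine interleukin-1 beta made mainly by myeloid cells, rose by 1.06 ± 0.31 with an adjusted p of 0.000809 in the authors' deposited table. It was the only member called of 14 tested inflammatory cytokines and receptors, whose median was 0.0088 in the authors' deposited table. Litaf, a lysosomal membrane protein named for its induction by lipopolysaccharide, rose by 0.65 ± 0.21 with 0.00231 in the authors' deposited table. Beside these, 0 of 16 Kupffer cell genes, 0 of 19 monocyte and macrophage genes and 0 of 4 neutrophil genes that were tested passed in the authors' deposited table, by DESeq2. At an unadjusted p under 0.05, 1 Kupffer, 1 macrophage and 2 neutrophil genes were higher and 0 were lower in the authors' deposited table. The part of cell number in the Il1b result was not tested.

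Interferon genes showed no call. Of 30 interferon-stimulated genes and 18 interferon-induced GTPases tested, 0 passed by DESeq2, with medians of -0.0039 and 0.024 in the authors' deposited table. At an unadjusted p under 0.05 the numbers were 3 and 1, all of them higher in K7M2-CL-EVPs livers, in the authors' deposited table. Oas2, an antiviral RNA sensor and the interferon-stimulated gene of smallest p, had 0.11 ± 0.11 with an adjusted p of 0.259 in the authors' deposited table. The 15 class I and 7 class II antigen presentation genes tested also had 0 calls, and at an unadjusted p under 0.05 they had 0 and 2 in the authors' deposited table.

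A few genes of protein folding in the endoplasmic reticulum (ER) were called. The unfolded protein response is the programme by which cells add ER chaperones when folding capacity is short, and its sensors also drive the integrated stress response. Of 25 tested genes on that list 4 rose and 1 fell, with a median of 0.077 in the authors' deposited table, and 21 lay above 0. At an unadjusted p under 0.05, 13 were higher and 2 lower in the authors' deposited table. Dnajc3, an ER co-chaperone that restrains the kinase PERK, rose by 0.29 ± 0.099 with an adjusted p of 0.00239 in the authors' deposited table. Pdia4, a protein disulfide isomerase, rose by 0.27 ± 0.14 with 0.0163, and Creld2, an ER stress-induced secretory pathway protein, by 0.50 ± 0.39 with 0.0179 in the authors' deposited table. Manf, an ER-resident secreted factor, rose by 0.31 ± 0.30 with 0.0491 in the authors' deposited table, a call lost when adjusted over every gene with a p-value (0.0971). The member that fell was Trib3, a pseudokinase induced by ATF4 and CHOP in the integrated stress response, at -0.73 ± 0.34 with 0.00549 in the authors' deposited table. Outside the list, and picked after their values were seen, Edem3, which trims mannose from misfolded glycoproteins, rose by 0.34 ± 0.11 and the ER oxidase Ero1lb by 0.24 ± 0.15 in the authors' deposited table; the call for Ero1lb was lost in the same way (0.0748).

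Promoter windows of Dnajc3 and Creld2 are shown for their match to the ER stress response element, which was searched on both strands as CCAAT and CCACG with any 9 bases between them. Capitals mark the match.
Dnajc3, chr14:118937682-118937981, plus strand: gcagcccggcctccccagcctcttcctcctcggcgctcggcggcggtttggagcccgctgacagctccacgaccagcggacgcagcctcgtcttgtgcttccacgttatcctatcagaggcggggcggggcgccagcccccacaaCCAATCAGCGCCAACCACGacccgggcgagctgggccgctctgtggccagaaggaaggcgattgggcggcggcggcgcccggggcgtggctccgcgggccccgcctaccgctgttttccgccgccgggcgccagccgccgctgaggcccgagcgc
Creld2, chr15:88819396-88819695, plus strand: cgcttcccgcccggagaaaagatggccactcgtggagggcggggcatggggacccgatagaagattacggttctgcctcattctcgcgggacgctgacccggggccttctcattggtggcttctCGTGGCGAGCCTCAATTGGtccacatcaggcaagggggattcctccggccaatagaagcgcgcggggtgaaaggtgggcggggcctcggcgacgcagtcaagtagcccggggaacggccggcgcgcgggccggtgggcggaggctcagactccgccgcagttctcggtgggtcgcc
The match lay 105 to 87 bases before the start in Dnajc3 and, on the opposite strand, 126 to 108 bases before it in Creld2. It was found in 39 of 32851 windows (0.119%), and by gene in 37 of all 27025 (0.137%). Of genes with a window, it was in 2 of the 57 that rose, which are the 2 shown, and 0 of the 70 that fell. The window of Pdia4 held no match, and no window was available for Manf.

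**Figure D3:**
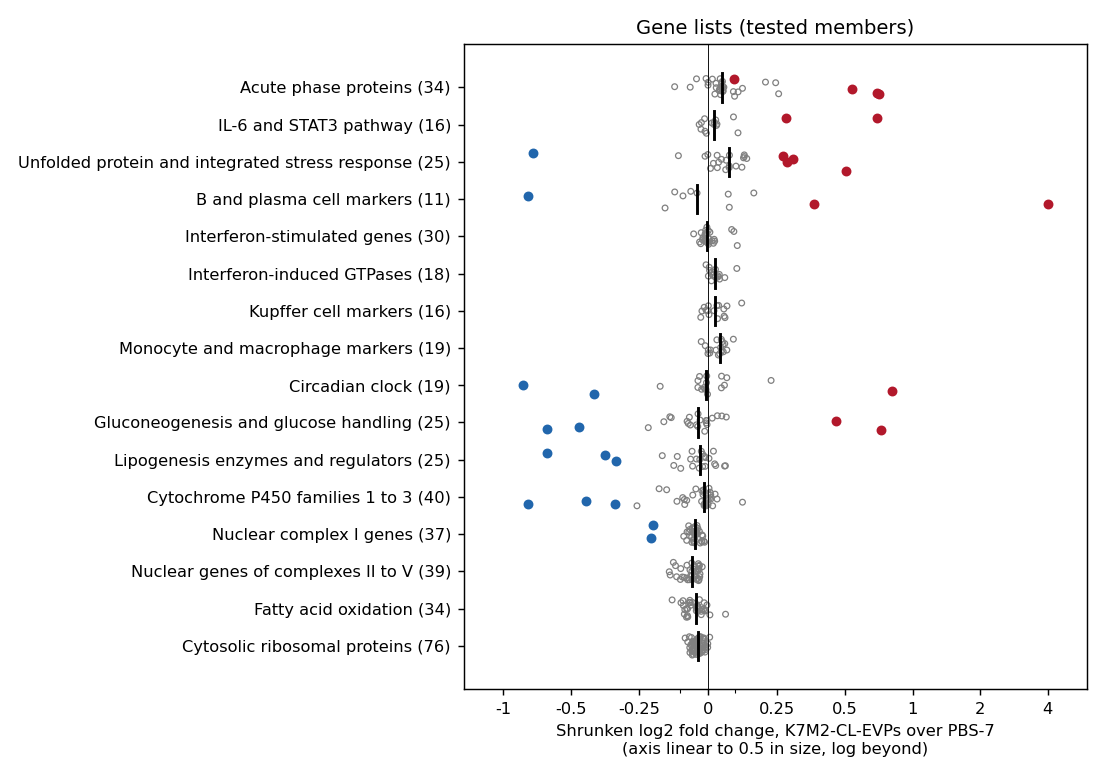
Shrunken log2 fold changes in K7M2-CL-EVPs livers over PBS-7 livers (x axis, linear to 0.5 in size and logarithmic beyond) of the tested members of 16 gene lists, with the number tested in brackets. Filled red and blue points passed an adjusted p of 0.05 upward and downward in the authors' deposited table, open points did not, and black bars are medians; calls are few in each list, and all 39 tested genes of complexes II to V lie below 0 without a call.

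Genes of fuel use moved in both directions. Pklr, the liver pyruvate kinase of glycolysis, fell by 0.64 ± 0.32 with an adjusted p of 0.00690 in the authors' deposited table. Acly, which makes cytosolic acetyl-CoA for lipid synthesis, fell by 0.38 ± 0.27 with 0.0276, and Dgat2, which catalyses the last step of triglyceride synthesis, by 0.34 ± 0.13 with 0.00454 in the authors' deposited table. These were the 3 calls among 25 tested lipogenesis genes, whose median was -0.030, and 0 rose in the authors' deposited table. Acly did not pass when adjusted over every gene with a p-value. Srebf1, the transcription factor of lipogenesis, had -0.17 ± 0.16 with an adjusted p of 0.122 in the authors' deposited table.

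In the other direction Pdk4, a kinase that shuts off pyruvate dehydrogenase, rose by 0.72 ± 0.43 with 0.00666 in the authors' deposited table. G6pc, the glucose-6-phosphatase that releases glucose to the blood, rose by 0.47 ± 0.23 with 0.00933 in the authors' deposited table. Pdk2, a second pyruvate dehydrogenase kinase, fell by 0.47 ± 0.21 with 0.00698 in the authors' deposited table. Of 25 tested genes of glucose handling 2 rose and 2 fell, with a median of -0.036 in the authors' deposited table. Slc2a1, the glucose transporter GLUT1, rose by 0.38 ± 0.17 with 0.00761 and was the only call among 10 tested hypoxia targets in the authors' deposited table. Aldh3a2, a fatty aldehyde dehydrogenase, fell by 0.35 ± 0.13 with 0.00369, and with Pdk4 it made up the calls among 20 tested targets of PPAR-alpha in the authors' deposited table. Fatty acid oxidation (34 tested), cholesterol synthesis and uptake (25) and bile acid genes (23) had 0 calls by DESeq2, and at an unadjusted p under 0.05 they had 6, 0 and 3 in the authors' deposited table.

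Cebpa, a transcription factor that maintains hepatocyte gene expression, fell by 0.52 ± 0.17 with an adjusted p of 0.00231 in the authors' deposited table. It was the only call among 24 tested hepatocyte identity genes, and Hnf4a had 0.096 ± 0.088 with 0.316 in the authors' deposited table.

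Drug-metabolising genes fell where they changed. Of 40 tested cytochrome P450 genes of families 1 to 3, 3 fell and 0 rose, with a median of -0.013 in the authors' deposited table. Cyp2a22 fell by 0.77 ± 0.15 with an adjusted p of 1.56e-05, and Cyp2c44 by 0.44 ± 0.17 with 0.00483 in the authors' deposited table. Cyp2a5, the mouse coumarin hydroxylase, fell by 0.34 ± 0.36 with 0.0404, a call lost when adjusted over every gene with a p-value, and its close relative Cyp2a4 had -0.26 ± 0.31 with 0.0657 in the authors' deposited table. Genes of the Cyp2a cluster are similar enough that reads may be split between them. Gstt2, a glutathione transferase, fell by 0.40 ± 0.14 with 0.00395, as 1 of 20 tested glutathione transferases in the authors' deposited table. Sult1c2, a sulfotransferase, fell by 0.53 ± 0.24 with 0.00686, as 1 of 21 tested conjugating enzymes in the authors' deposited table.

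Respiratory chain genes lay slightly below 0. Complex I is the NADH dehydrogenase that opens the mitochondrial respiratory chain. Ndufs3 fell by 0.20 ± 0.078 with an adjusted p of 0.00761 and Ndufb10 by 0.21 ± 0.086 with 0.00998 in the authors' deposited table. The other 35 of 37 tested nuclear complex I genes did not pass, all 37 lay below 0, and the median was -0.048 in the authors' deposited table. Of 39 tested nuclear genes of complexes II to V, 0 passed by DESeq2, all lay below 0, the median was -0.058 and 10 had an unadjusted p under 0.05 in the authors' deposited table. Cytosolic ribosomal protein genes lay similarly low, with 75 of 76 tested genes below 0, a median of -0.037, 0 calls and 1 unadjusted p under 0.05 in the authors' deposited table. Genes of these complexes vary together between libraries, so the number below 0 is not a count of independent genes, and the part of library differences in it was not tested.

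The circadian clock list held 3 calls among 19 tested genes. Nr1d1, the repressor REV-ERB alpha of the clock, fell by 0.81 ± 0.41 with an adjusted p of 0.00485, and Cry2, a repressor of CLOCK and BMAL1, by 0.41 ± 0.16 with 0.00549 in the authors' deposited table. Nfil3, a repressor that Nr1d1 itself represses, rose by 0.81 ± 0.41 with 0.00485 in the authors' deposited table. Clock had 0.23 ± 0.26 with 0.0819, and the list's median was -0.0070 in the authors' deposited table. The hour at which livers were taken was not given in the labels.

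Several of the strongest changes fell outside these lists. Atp11a, a flippase that moves phosphatidylserine to the inner leaflet of the plasma membrane (chr8:12757014-12868728, plus strand, GENCODE vM21 on GRCm38), rose by 1.22 ± 0.20 with an adjusted p of 2.35e-08 in the authors' deposited table. Slc13a3, a sodium-coupled transporter of succinate and other dicarboxylates, rose by 0.94 ± 0.16 with 8.31e-08 in the authors' deposited table. Slc25a25, a calcium-regulated ATP-Mg and phosphate carrier of mitochondria, rose by 0.71 ± 0.15 with 5.31e-05 in the authors' deposited table. Klhdc8a, a kelch domain protein, rose by 1.00 ± 0.33 with 0.00124 in the authors' deposited table. Slc41a2, a magnesium transporter, had 0.86 with an error of 1.12 and an adjusted p of 0.00549, so the size of that change is poorly known from the authors' deposited table. Fam84b and Sowahb rose by 0.77 ± 0.32 and 0.71 ± 0.19 in the authors' deposited table.

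The largest fall was in Prss8, the membrane-anchored serine protease prostasin, at -1.15 ± 0.53 with an adjusted p of 0.00139 in the authors' deposited table. Azin2, an antizyme inhibitor that raises polyamine synthesis, fell by 0.83 ± 0.34 with 0.00358, and Pcsk4, a proprotein convertase, by 0.83 ± 0.16 with 1.42e-05 in the authors' deposited table. Tbc1d10a, a Rab GTPase-activating protein, fell by 0.73 ± 0.21, and Map2k6, a kinase that activates p38, by 0.70 ± 0.35 in the authors' deposited table. Spata2l, Vwce, Mast3, Ank3 (ankyrin-G) and Tk1 (cytosolic thymidine kinase) fell by between 0.69 and 0.54 in the authors' deposited table, with adjusted p-values between 0.0116 and 0.00124. Tk1 makes nucleotides for DNA synthesis, and the 15 tested cell cycle genes had 0 calls by DESeq2 and 2 unadjusted p-values under 0.05 in the authors' deposited table.

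EVPs of K7M2 tumour explants, given on the same schedule, were set against the same PBS-7 livers, so the 2 comparisons share their controls, and no overlap of their calls is given. In K7M2-TE-EVPs livers 478 of 11820 tested genes passed (4.04%), of which 162 were higher (1.37%) and 316 lower (2.67%), in the authors' deposited table. The 74 genes that rose after K7M2-CL-EVPs had medians of 0.39 after K7M2-CL-EVPs and 0.19 after K7M2-TE-EVPs, from the authors' deposited tables. The 101 that fell had medians of -0.35 and -0.20. These genes were chosen by their p-values after K7M2-CL-EVPs. That choice and the shared controls by themselves favour smaller medians of the same sign after K7M2-TE-EVPs. The medians therefore do not compare the 2 effects. Fga had 0.71 ± 0.23 after K7M2-CL-EVPs and 0.16 ± 0.12 after K7M2-TE-EVPs in the authors' deposited tables. Socs3 had 0.69 ± 0.38 after K7M2-CL-EVPs and 0.15 ± 0.14 after K7M2-TE-EVPs in the authors' deposited tables. In the other direction Il1b had 1.06 ± 0.31 after K7M2-CL-EVPs and 1.49 ± 0.31 after K7M2-TE-EVPs, and Prss8 had -1.15 ± 0.53 and -1.58 ± 0.54 in the authors' deposited tables.

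The difference of both effects was tested from the scores that the p-values give, over 11820 genes. A score is an effect over its error, so this form takes the errors of both comparisons as equal. Errors recovered by undoing the shrinkage, available for 10220 genes, differed by a median of 1.12-fold, and for a minority of genes by more than 1.48-fold. A gene may therefore pass or miss through unequal errors and not only through unequal effects. By the score test 1 gene passed (0.00846%), Ighg1, with an adjusted p of 0.00333. Its shrunken log2 fold changes were 4.02 and 0.26 in the authors' deposited tables, and the score test does not use them. After K7M2-TE-EVPs its unadjusted p by DESeq2 was 0.00031, and the size of that rise without shrinkage is not known. Without an adjustment 224 genes had a p under 0.05. Ighg1 did not hold when errors were taken as 25% larger (adjusted p 0.472). With a covariance for the shared controls 30 genes passed, and with effects recovered by undoing the shrinkage, the form first planned, 41 did. Ighg1 was among them in both forms. A p that misses the threshold does not show that both preparations act alike.

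EVPs of cultured B16F10 cells were given to C57BL/6 mice in a separate experiment, so cell line, strain and experiment cannot be told apart. In B16F10-CL-EVPs livers 545 of 14426 tested genes passed (3.78%) in the authors' deposited table. Of 173 genes called after K7M2-CL-EVPs and tested in both, 14 were also among the 482 called after B16F10-CL-EVPs, which is 8.09% of the one list and 2.90% of the other, from the authors' deposited tables. Both were higher in 2 of them, Ighg1 included, and the other 12 moved in opposite directions in the authors' deposited tables. Among those, Fga had 0.71 ± 0.23 after K7M2-CL-EVPs and -0.31 ± 0.18 after B16F10-CL-EVPs, and Cyp2a5 had -0.34 ± 0.36 and 0.88 ± 0.22 in the authors' deposited tables.

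The effects were compared by the difference of the deposited folds over the root of their summed squared errors, and 6 of 11745 genes passed (0.0511%). Atp11a had 1.22 ± 0.20 after K7M2-CL-EVPs and -0.024 ± 0.096 after B16F10-CL-EVPs in the authors' deposited tables, with an adjusted p of 0.000232 for the difference. Slc13a3 had 0.94 ± 0.16 and -0.013 ± 0.080 in the authors' deposited tables, with 0.000284. Klhdc8a had 1.00 ± 0.33 and -0.93 ± 0.22 in the authors' deposited tables, with 0.00522. Slc25a25 and Ighg1 were the other 2 with the higher effect after K7M2-CL-EVPs. In Upp2, a uridine phosphorylase of liver, the effect was lower after K7M2-CL-EVPs, with -0.021 ± 0.12 against 1.00 ± 0.20 after B16F10-CL-EVPs in the authors' deposited tables and an adjusted p of 0.0262. None of the 6 passed with errors 25% larger, where 148 genes had an unadjusted p under 0.05. Effects recovered by undoing the shrinkage, which gave impossible sizes for some genes, called 271 in place of 6.

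Far more genes were called in livers of mice with a K7M2 tumour in the tibia. In K7M2-Tb livers 4852 of 17350 tested genes passed (28.0%) in the authors' deposited table. That comparison had 5 livers per group and tested genes down to a base mean of 1.45. The K7M2-CL-EVPs comparison had 3 per group and tested genes down to 38.7. The shares called therefore do not by themselves compare how widely the livers changed. Of the 175 genes called after K7M2-CL-EVPs, 77 (44.0%) were also among the 3935 genes called in K7M2-Tb livers and tested in both, which is 1.96% of that list, from the authors' deposited tables. Of genes tested in both, 33.3% were called in K7M2-Tb livers in the authors' deposited table. The direction was the same in 66 of the 77 and opposite in 11, among them Pdk4, Slc25a25, Pklr and Prss8, in the authors' deposited tables. Pklr had -0.64 ± 0.32 in K7M2-CL-EVPs livers and 0.91 ± 0.18 in K7M2-Tb livers in the authors' deposited tables.

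By the same test on deposited folds, 2151 of 11819 genes differed between the effects (18.2%), 969 with the higher effect after K7M2-CL-EVPs, against 1612 with recovered effects. The largest differences in size were in acute phase genes. Lcn2, which encodes lipocalin-2, an iron-withholding acute phase protein, had 0.050 ± 0.26 in K7M2-CL-EVPs livers and 8.86 ± 0.20 in K7M2-Tb livers in the authors' deposited tables. Saa1 had 0.058 ± 0.36 and 8.36 ± 0.21 in the authors' deposited tables. Fgb had 0.54 ± 0.27 and 1.84 ± 0.13, and Socs3 had 0.69 ± 0.38 and 2.39 ± 0.45, in the authors' deposited tables. The neutrophil gene S100a8 had 0.13 ± 0.26 in K7M2-CL-EVPs livers and 6.01 ± 0.31 in K7M2-Tb livers in the authors' deposited tables. Slc41a2 had 0.86 ± 1.12 and 5.53 ± 0.21, and Atp11a had 1.22 ± 0.20 and 2.92 ± 0.17, in the authors' deposited tables.

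**Figure D4:**
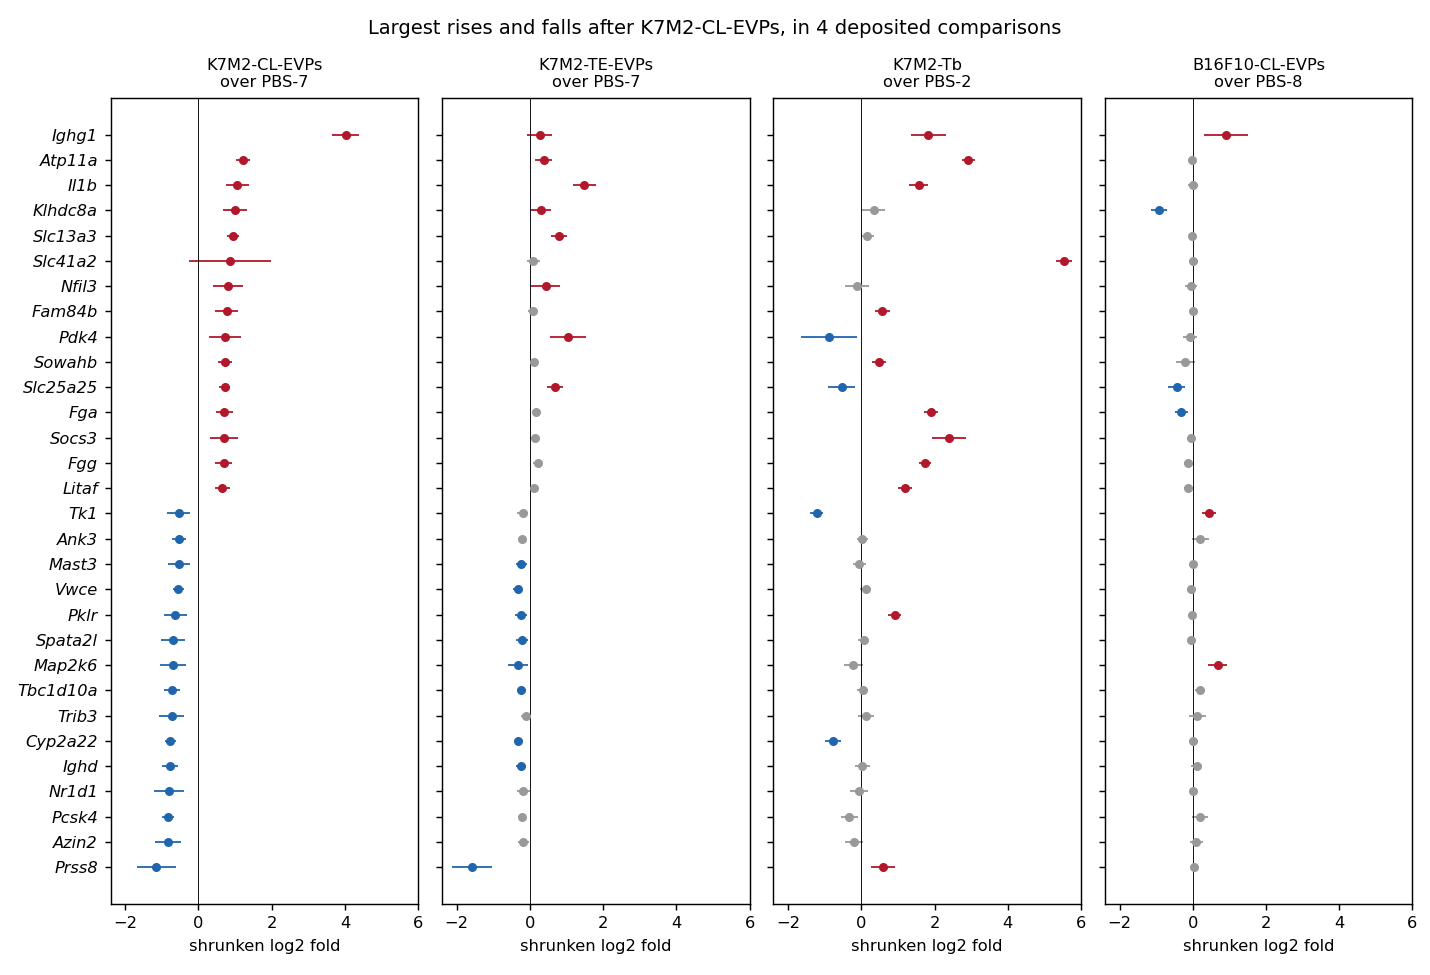
Points are shrunken log2 fold changes of a treated group over its PBS group (x axis) from the authors' deposited tables, with bars for the deposited errors, for the 15 largest rises and 15 largest falls after K7M2-CL-EVPs (rows), in 4 comparisons (panels). Red and blue mark an adjusted p under 0.05 upward and downward and grey the rest; Ighg1 reaches 4.02 after K7M2-CL-EVPs and 0.26 after K7M2-TE-EVPs, and Klhdc8a changes sign between the K7M2-CL-EVPs panel (1.00) and the B16F10-CL-EVPs panel (-0.93). The first 2 panels share the PBS-7 livers.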

How the data were processed

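Polyadenylated RNA of flash-frozen livers was sequenced as stranded libraries, per the labels' protocols. The submitters' processing notes name bcl2fastq 2.19, TopHat2 2.0.11, Cufflinks 2.1.1, DESeq2 and the build mm9; the counting tool, its strand setting and the annotation are not given in the sources used here. Of 42687 identifiers 42250 are in GENCODE vM21 (GRCm38), whose coordinates are used. Per the file headers the authors deposited, for each comparison, a base mean (a signal: mean count over size factors), a log2 fold change with a log2 error, and a p-value with its adjustment. That the folds are shrunken and the p-values are not was read from the values: Saa2 has a fold of 0.094, an error of 0.51 and a p of 0.000719. No column held values per sample. 8 of 13 tables were used.

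Calls are the authors' adjusted p under 0.05. The 49 gene lists found in the tables and the members were chosen with earlier results of these data known; 14 of 1123 symbols were not matched, and mitochondrially encoded genes are not analysed here. Named are the 15 largest rises and falls with a base mean of at least 50, predicted genes left out, the 4 members of smallest p per list with at least 3 tested members, and the 6 largest differences each way; some are given only in counts, and some results are not reported here.

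For the differences of effects, inverting the shrinkage with a fitted Cauchy prior had been planned. It gave no value for 1600 of 11820 genes of the K7M2-CL-EVPs table, and log2 effects of up to 123 in size for genes that were not called and whose deposited folds were at most 0.085. It was therefore replaced, after its failure and the counts of the other forms had been seen, by the difference of scores from the p-values (both K7M2 EVP tables, which have identical base means) or of deposited folds over the root of the summed squared errors, with a normal reference and Benjamini-Hochberg adjustment; the counts of the planned form are in the closing section. A difference of scores is a difference of effects only where both errors are equal. Shrinkage differs between tables, which can shift differences of deposited folds. Simulated data held 11820 genes with 200 changed by 1 on the log2 scale. There the scores recovered 124 with 0 wrong and the deposited form 147 with 2 wrong. Scores with a covariance for the shared controls recovered 188 with 13 wrong and the planned form 111 with 5 wrong. Every simulated group had 3 samples, with a known spread of counts, equal base means and the same prior. Comparisons with 5 livers per group or unequal shrinkage were not simulated. The planned form passed there and failed on the deposited values, so passing does not show that a form holds on these data. Python 3.11.15, SciPy 1.17.1 and pandas 2.3.3 were used.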

Additional observations from a re-analysis of the deposited data

Results flagged for a closer look

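The effect of K7M2-CL-EVPs differed from that of another treated group, by the tests of the difference itself, in the genes below; values are differences of log2 fold changes from the authors' deposited tables, K7M2-CL-EVPs minus the other.

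Against K7M2-TE-EVPs, which shares the PBS-7 livers, the difference was 3.76 for Ighg1. This is a gap between shrunken folds, while the test used scores from the p-values and took both errors as equal. Against B16F10-CL-EVPs, where cell line, strain and experiment cannot be told apart, it was 1.93 for Klhdc8a, 1.24 for Atp11a, 1.15 for Slc25a25, 0.95 for Slc13a3 and -1.02 for Upp2. Ighg1 passed there as well but had a base mean of 23.1 in the B16F10-CL-EVPs table.

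Against K7M2-Tb, also a separate experiment, the largest positive differences were in genes whose log2 fold change in K7M2-Tb livers lay between -4.15 and -2.65. They were 4.17 for Ces3b, a carboxylesterase, 4.06 for Krt23, a keratin, 3.52 for Ntrk2, a neurotrophin receptor, 3.40 for Hamp2, a relative of the iron hormone hepcidin, 2.97 for Lrit2 and 2.67 for Fam25c. The largest negative ones were -8.81 for Lcn2, -8.72 for Saa2, -8.31 for Saa1, -7.39 for Saa3, -5.90 for Orm2, an acute phase orosomucoid, and -5.88 for S100a8. The 12 genes named had shrunken log2 fold changes between -0.12 and 0.13 in K7M2-CL-EVPs livers. Folds near 0 do not show that these genes were unchanged there. By DESeq2, Saa2 was called as a rise (adjusted p 0.0491), and S100a8 had an unadjusted p of 0.00354. With recovered effects, of these genes only Hamp2, Lrit2 and S100a8 had a value. Unequal shrinkage may therefore enter the sizes of these differences.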

How the results depend on the processing

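The count of 175 changed genes became 81 at an adjusted p under 0.01, 293 at one under 0.1 and 50 when a log2 fold change of at least 0.5 in size was also required. It was 117 when adjusted over every gene with a p-value, which ended 62 of the 175 calls. Of the 117, 113 were among the 175, and the gains include Ighg2b and Ighg2c. The count was 172 over genes with a base mean of at least 50 and 163 without predicted genes. Among 207 named genes, adjustment over every gene ended 7 calls, among them Saa2, Bcl3, Igkc, Acly, Cyp2a5 and Ctsc. List members called numbered 36, against 54 at an adjusted p under 0.1 and 30 when adjusted over every gene.

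Differences of effects depended on the form of the test. Against K7M2-TE-EVPs 1 gene passed, 30 with a covariance for the shared controls, 0 with errors 25% larger (61 at an unadjusted p under 0.05), and 41 with effects recovered without shrinkage, the planned form, which gave impossible values. The deposited folds, added after seeing the data, gave 1. Against B16F10-CL-EVPs 6 passed, 0 with larger errors, 271 with recovered effects and 4 at a base mean of at least 50, where Slc25a25 was lost (adjusted p 0.0543). Against K7M2-Tb 2151 passed, 1374 with larger errors and 1612 with recovered effects.

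No paired analysis was possible because the files hold no values per sample. For the same reason no replicate was left out and no replicate block was run, so the weight of a single liver in any value is not known. Depth per library is unknown, and genes of low base mean, among them most IgG genes, had no adjusted p.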

Other observations

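A few further genes with shared functions were called in K7M2-CL-EVPs livers against PBS-7 livers; they were picked after their values were seen, and no test of the grouping was made. Polyamine synthesis was represented by Azin2 and by Odc1, the ornithine decarboxylase that starts the pathway, which fell by 0.24 ± 0.15 with an adjusted p of 0.0402 in the authors' deposited table. Sphingolipid synthesis was represented by Cers6, a ceramide synthase, which rose by 0.34 ± 0.16 with 0.00991, and Ugcg, which makes glucosylceramide from ceramide, which rose by 0.45 ± 0.21 with 0.00761 in the authors' deposited table.

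Cardiolipin is the signature lipid of mitochondrial inner membranes. Crls1, the cardiolipin synthase, rose by 0.20 ± 0.12 with an adjusted p of 0.0491, while Ptpmt1, the phosphatase of the step before it, fell by 0.20 ± 0.11 with 0.0359 in the authors' deposited table. Among mitochondrial carriers Slc25a25 rose, and Slc25a10, the dicarboxylate carrier, fell by 0.30 ± 0.088 with 0.000809 in the authors' deposited table. The calls for Odc1, Crls1 and Ptpmt1 were lost when p-values were adjusted over every gene that has one (0.0797, 0.0971 and 0.0718). Dmbt1, a secreted scavenger receptor below the base mean set for named genes (39.7), had 0.67 ± 0.72 after K7M2-CL-EVPs and 2.28 ± 0.57 after K7M2-TE-EVPs in the authors' deposited tables.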
